A study of Homo sapiens with 12 samples.

Results

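The Fc receptor-like family was followed through 3 human mantle cell lymphoma lines kept with or without a blocker of Notch signalling. From it 7 genes, FCRL1, FCRL2, FCRL3, FCRL4, FCRL5, FCRLA and FCRLB, were taken by symbol, and the family below means these 7. FCRL6, also a member, was placed in the list of classical and other Fc receptors instead. Every probe set that named one of the 7 was used. This gave 21 probe sets of the 54613 tested, and 7 genes of the 19775 with a probe set of their own. FCRL1 had 2 probe sets, FCRL2 had 5, FCRL3 had 2, FCRL4 had 3, FCRL5 had 5, FCRLA had 3 and FCRLB had 1, and none of the 21 named a second gene. All were kept whatever their level.

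FCRL proteins are relatives of the classical Fc receptors, which bind the constant part of antibodies, and most of them are found mainly on B cells. The surface members carry immunoglobulin-like domains outside the cell and tyrosine motifs inside it, and these motifs recruit kinases or phosphatases that raise or dampen signals of the B-cell receptor. FCRL4 is known as a marker of a memory B-cell population of mucosal and other tissues, and FCRLA and FCRLB stay inside the cell.

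The lines were Rec-1, SP-49 and Mino, established cultures of mantle cell lymphoma, a cancer of mature B cells that is typically driven by cyclin D1. Treated cells received 1 µM compound E, which inhibits gamma-secretase, the protease that releases the active inner part of Notch receptors, and this group is called GSI. Control cells, called Mock, received 0.1% DMSO. All were harvested for total RNA after 24 h, and each line had 2 GSI and 2 Mock arrays, 12 arrays in 6 groups. Rec-1 and SP-49 grew in 10% serum and Mino in 15%, so differences between Mino and the other lines cannot be told apart from serum. The comparisons asked which FCRL transcripts change when gamma-secretase is blocked, and how far the lines differ without inhibitor. Values are deposited Affymetrix signals on the log2 scale, where 1 unit is a doubling, and their median over all probe sets and arrays was 1.99. Signals near or under that median are mostly background, so a fall that ends there, or a fold against a group there, is understated. The sources used here do not say whether the 2 arrays of a group came from separate cultures, so p-values measure the spread between these arrays, which may be technical, and the number of arrays limits the precision. Because each array holds RNA of a whole culture, fewer cells with a transcript and less of it per cell cannot be told apart.

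The arrays carried B-cell and mantle cell lymphoma transcripts. All 5 measured B-cell markers and all 3 lymphoma markers lay above the median in every group, with CCND1, the cyclin D1 gene, at 8.32 to 10.7. The lymphoma marker CD5 averaged only 2.40 to 2.74 in the Rec-1 and SP-49 groups, near background, and 4.02 to 4.37 in Mino. The third, SOX11, averaged 4.87 to 4.90 in Rec-1 and 7.42 to 8.66 in the other lines. The Notch target HES1, a transcriptional repressor, fell by 3.80 in Rec-1 (limma adjusted p = 5.91e-06) and by 3.51 in SP-49 (adjusted p = 2.09e-05), whereas its change in Mino was -0.07 (adjusted p = 1). HES1 averaged 1.84 in Mino Mock, near background, so it had little room to fall there. NRARP, a feedback inhibitor of Notch, fell by 1.38 in Rec-1 (adjusted p = 0.00061) and by 0.76 in SP-49 (not passing, 0.115). MYC fell by 1.53 in Rec-1 and 1.55 in SP-49 (0.00106 and 0.00753), and in Mino it changed by 0.13 from 9.82. Of 8 Notch check genes, 6 were called lower in Rec-1 and 2 in SP-49, beside 4.18% and 0.106% of all genes. These genes were chosen with earlier results of these data known, so the shares are no test of an excess. Arrays of 1 line correlated with r of 0.979 to 0.995 across probe sets, and arrays of different lines with r of 0.932 to 0.953. The narrowest signal distributions of the 12 arrays were those of Rec-1 GSI replicate 2 and SP-49 GSI replicate 2 (SD 1.949 and 1.996).

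The 7 genes lie in a pair of groups on the long arm of chromosome 1. In GRCh38.p14, FCRL5, FCRL4, FCRL3, FCRL2 and FCRL1 follow each other between bases 157513377 and 157820120, a stretch of 307 kb. FCRLA and FCRLB lie between bases 161707229 and 161728143, a stretch of 20.9 kb, and 3.89 Mb separate them from the first group. The 250 bases before the annotated start are shown for 3 genes with unlike behaviour: FCRL4, which fell with the inhibitor, FCRL5, the gene next to it, which did not pass the test, and FCRL1, which was high in 1 line only. They come from RefSeq, run 5′ to 3′ along the coding strand, the minus strand in all 3, and cover chr1:157598086-157598335 for FCRL4, chr1:157552516-157552765 for FCRL5 and chr1:157820121-157820370 for FCRL1. Capitals mark TTCCCA, the reverse complement of TGGGAA, or ACTTCC, the reverse complement of GGAAGT.
FCRL4: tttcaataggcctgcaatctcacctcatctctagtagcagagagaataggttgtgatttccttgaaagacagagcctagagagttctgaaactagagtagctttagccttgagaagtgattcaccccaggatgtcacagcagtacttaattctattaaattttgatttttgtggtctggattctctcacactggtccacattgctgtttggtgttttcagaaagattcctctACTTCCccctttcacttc
FCRL5: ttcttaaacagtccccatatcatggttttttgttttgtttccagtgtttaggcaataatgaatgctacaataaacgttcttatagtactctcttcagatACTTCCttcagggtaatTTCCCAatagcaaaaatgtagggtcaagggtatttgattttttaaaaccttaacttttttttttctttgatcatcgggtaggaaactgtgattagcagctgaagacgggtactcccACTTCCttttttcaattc
FCRL1: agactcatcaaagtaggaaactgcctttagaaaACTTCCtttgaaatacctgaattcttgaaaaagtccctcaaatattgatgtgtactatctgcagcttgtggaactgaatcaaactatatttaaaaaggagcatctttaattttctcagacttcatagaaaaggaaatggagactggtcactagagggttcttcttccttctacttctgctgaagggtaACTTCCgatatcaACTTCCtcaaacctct

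TGGGAA is the core of the letters bound by RBPJ, the DNA-binding partner of Notch, and GGAAGT holds the GGAA core of ETS-family factors. GGAAGT was chosen after the sequences had been read. Both were searched on both strands, and the 2 can overlap where the GGAA letters are shared. TGGGAA was in the first window of FCRL3, FCRL5 and FCRLB, and of all 35116 windows of this length 20.8% held it. The FCRL4 window held no TGGGAA, which says only that these letters are not in the 250 bases before this start. GGAAGT was in the windows of FCRL1, FCRL2, FCRL4, FCRL5 and FCRLA, which is 5 of the 9 windows of the 7 genes. Of all windows, 19.5% held it. Because GGAAGT was chosen from these sequences, setting the 2 shares side by side is no test of an excess. It began 18 bases before the start in FCRL4, 18 and 151 bases before it in FCRL5, and 16, 29 and 217 bases before it in FCRL1.

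FCRL4 was the family member that changed with the inhibitor, and it did so in Rec-1 and SP-49. FCRL4 (IRTA1) is a receptor with inhibitory motifs that binds IgA. Its probe set 224402_s_at read 2.26 and 2.39 on the GSI arrays of Rec-1, against 5.69 and 5.51 on the Mock arrays. The second, 224403_at, read 2.13 and 1.93 in Rec-1 with GSI, against 5.53 and 4.97 in Mock. The third, 224401_s_at, read 2.20 and 1.88 in Rec-1 with GSI, against 5.13 and 4.83 in Mock. All 6 GSI readings lay close to the overall median and far under all 6 Mock readings. The fall was 3.28 on the log2 scale for 224402_s_at (95% interval -3.64 to -2.91), which is 9.69-fold lower, with a limma adjusted p of 5.91e-06. For 224403_at the level was 9.32-fold lower (adjusted p = 0.000189), and for 224401_s_at it was 7.67-fold lower (adjusted p = 4.66e-05). Ordered from the largest fall among the 54613 probe sets in Rec-1, the FCRL4 probe sets took places 4, 5 and 8.

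SP-49 gave FCRL4 values of a like size. In SP-49, 224402_s_at read 3.12 and 3.37 with GSI, against 6.39 and 6.53 in Mock. The next, 224403_at, read 3.30 and 2.33 with GSI, against 6.24 and 6.36 in Mock. The last, 224401_s_at, read 2.46 and 1.88 with GSI, against 4.81 and 4.90 in Mock. Again no GSI array reached a Mock array, and GSI readings of 224402_s_at stayed above those of Rec-1. The levels were 9.28-fold, 11.2-fold and 6.42-fold lower (log2 changes -3.21, -3.48 and -2.68), with limma adjusted p-values of 2.09e-05, 0.000294 and 0.000163. They held places 3, 2 and 5 among all falls in SP-49.

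In Mino FCRL4 was at the low end with and without inhibitor. Its 3 probe sets read 1.14 to 2.002 with GSI and 1.22 to 2.05 in Mock, and the ranges overlapped for each of them. The changes of 0.11, -0.11 and -0.14 had limma adjusted p-values of 1. A gene near background has little room to fall.

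**Figure D1:**
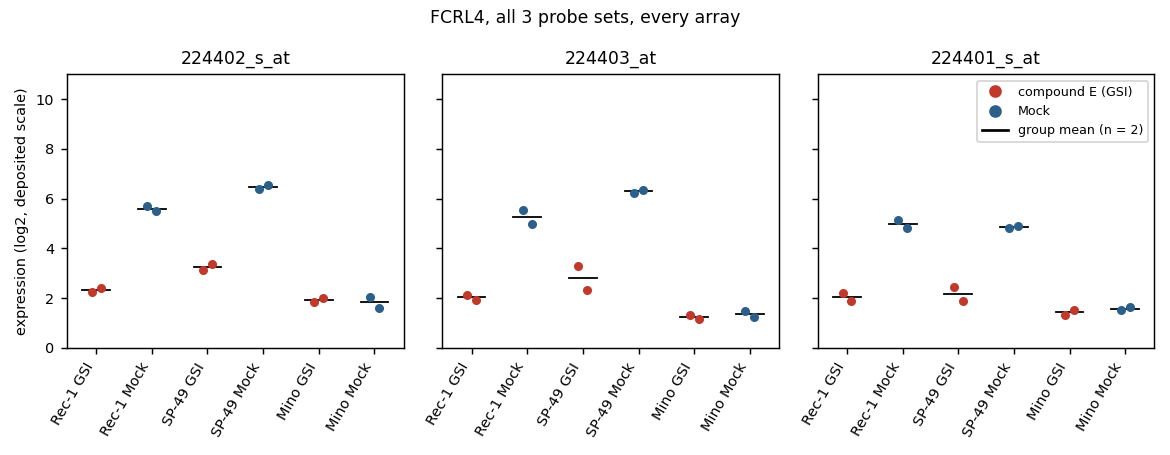
FCRL4 on every array, for its 3 probe sets. The vertical axis is the deposited log2 value, points are arrays (red GSI, blue Mock), and black lines are means of 2 arrays; in Rec-1 and SP-49 every GSI point lies under every Mock point, whereas all Mino points lie between 1.14 and 2.05.

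The changes of FCRL4 were also set against each other between lines. Because FCRL4 read near background in Mino Mock, the differences from Mino mostly repeat the within-line decreases of SP-49 and Rec-1, and they do not show that Mino responds differently. Relative to Mino, the change in Rec-1 was lower by 3.39, 3.11 and 2.80 log2 units for 224402_s_at, 224403_at and 224401_s_at (limma adjusted p = 0.000486, 0.00724 and 0.00252). The change in SP-49 was lower than that in Mino by 3.32, 3.37 and 2.54 (adjusted p = 0.000716, 0.0162 and 0.0118). For 224403_at and 224401_s_at, the SP-49 difference no longer passed when any of the 4 Mino arrays or either SP-49 Mock array was left out, with adjusted p-values up to 0.141 and 0.112 without SP-49 Mock replicate 1. Between Rec-1 and SP-49 the FCRL4 responses differed by -0.06 (95% interval -0.58 to 0.46), 0.26 (-0.57 to 1.10) and -0.26 (-0.86 to 0.34), and none passed. These comparisons share the Mino arrays, or the arrays of 1 line, with each other.

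Across the family, 3 of 21 probe sets were called in Rec-1, all lower and all of FCRL4, where 2.16% of all probe sets were called lower and 3.14% in either direction. In SP-49 the same 3 probe sets were called lower, where 0.0439% of all were. In Mino limma called 0 of 21, 0 of the 21 had an unadjusted p under 0.05, and the share over all probe sets was 0%. The median change of the 21 was 0.091 in Rec-1, -0.038 in SP-49 and -0.052 in Mino, beside 0.006, -0.015 and -0.010 over all probe sets. In the differences of response, the 3 called FCRL4 probe sets stood beside 0.408% of all called lower for Rec-1 minus Mino and 0.0201% for SP-49 minus Mino. For Rec-1 minus SP-49, limma called 0 of 21, 2 had an unadjusted p under 0.05, and 0.201% of all probe sets were called. Both arrays of a treatment lay beyond both of the other in 13 of 21 probe sets in Rec-1, 11 in SP-49 and 7 in Mino, against 41.8%, 40.1% and 33.1% of all probe sets.

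**Figure D2:**
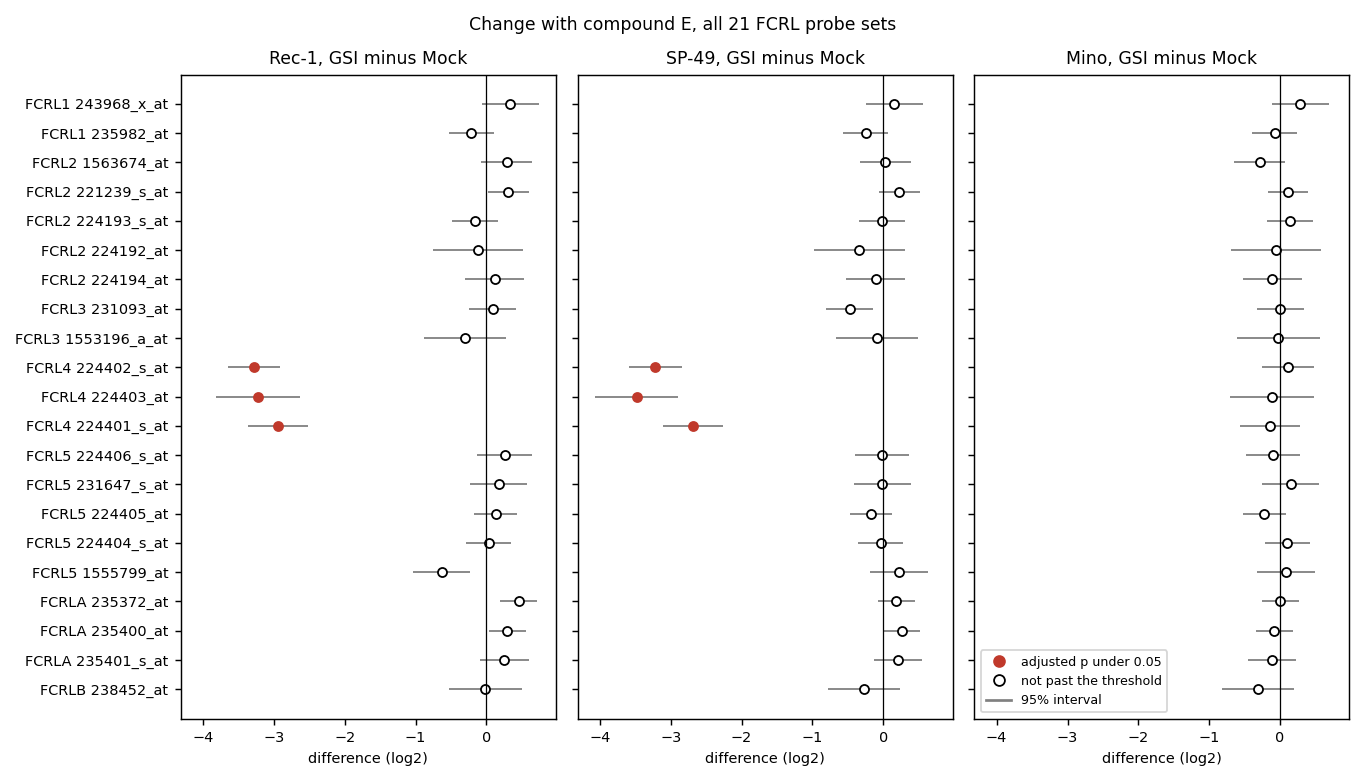
Change with compound E (GSI minus Mock, log2) for the 21 FCRL probe sets in Rec-1, SP-49 and Mino, all on 1 scale. Points are limma estimates from 2 arrays per group, grey lines are 95% intervals, and filled red points passed an adjusted p of 0.05; the 3 FCRL4 probe sets in Rec-1 and in SP-49, at -2.68 and lower, are the filled points.

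RNA quality and markers of other cell types moved in places with the treatment, also in Mino, where FCRL4 was not called. For GAPDH, a sign of RNA quality, the 3′ control probe set exceeded the 5′ one by 0.593 and 0.488 in Rec-1 with GSI, against 0.413 and 0.367 in Mock. In SP-49 the excess was 0.345 and 0.444 with GSI, against 0.350 and 0.336 in Mock. The same excess for ACTB overlapped between treatments in Rec-1 and in SP-49. It was 2.285 and 1.918 in Rec-1 with GSI, against 1.999 and 1.825 in Mock. For SP-49 it was 2.302 and 2.163 with GSI, against 2.294 and 2.357 in Mock. The summed log2 level of 7 T-cell markers was 15.4 to 16.3 in Rec-1 with GSI, against 16.6 to 19.2 in Mock, where the highest marker, CD3D, averaged 4.17 with GSI and 4.80 in Mock. In SP-49 that sum was 14.4 to 14.7 with GSI, against 13.8 to 13.9 in Mock. For 6 myeloid markers the sum was 10.2 to 10.7 with GSI in Rec-1, against 9.07 to 9.20 in Mock, and 9.12 to 9.43 with GSI in SP-49, against 8.52 to 8.65 in Mock. The sum of 5 epithelial markers was 9.91 to 9.98 with GSI in Rec-1, against 10.1 to 10.9 in Mock, and 10.1 to 10.8 with GSI in SP-49, against 11.8 to 12.2 in Mock. In SP-49 the epithelial adhesion gene CDH1 averaged 1.83 with GSI and 3.56 in Mock, while EPCAM averaged 1.67 with GSI and 1.61 in Mock. In Mino the GAPDH excess was 0.31 and 0.392 with GSI, against 0.26 and 0.25 in Mock. The ACTB excess in Mino was 2.001 and 1.94 with GSI, against 1.734 and 1.787 in Mock. The Mino myeloid sum was 9.786 with GSI, against 9.196 to 9.235 in Mock. Its epithelial sum was 11.77 to 11.89 with GSI, against 11.19 to 11.73 in Mock, and its T-cell sums overlapped. At most 1 of the 6 myeloid markers lay above the overall median in any group. Log2 signals have no true 0, and the part of these values in the FCRL4 result was not tested. Without Rec-1 GSI replicate 2 and SP-49 GSI replicate 2, all 3 FCRL4 probe sets were still called in both lines.

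FCRLA, an endoplasmic reticulum protein that binds immunoglobulins inside B cells, gave small positive differences with the inhibitor in Rec-1 and SP-49, none of which passed. Its probe set 235372_at read 8.97 and 8.98 in Rec-1 with GSI, against 8.52 and 8.52 in Mock. In SP-49 it read 9.59 and 9.79 with GSI, against 9.51 and 9.50 in Mock, and in Mino 8.64 and 8.63 with GSI, against 8.66 and 8.61 in Mock. The GSI arrays lay above the Mock arrays in Rec-1 and SP-49 and between them in Mino. The change in Rec-1 was 0.46 (95% interval 0.20 to 0.72, limma adjusted p = 0.066), and the other probe sets, 235400_at and 235401_s_at, gave 0.29 and 0.25 (adjusted p = 0.252 and 0.497). In SP-49 the 3 changes were 0.18, 0.26 and 0.21 (adjusted p = 0.844, 0.678 and 0.882). In Rec-1, 235372_at passed when 1 probe set stood for each gene (adjusted p = 0.0455), after a second quantile normalization (0.0414), and with an intensity trend and robust prior (0.000726), where 235400_at passed too (0.0393).

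No probe set of the remaining members passed in any line. FCRL1 is an activating member whose cytoplasmic tail promotes B-cell receptor signals. Its changes in Rec-1 were 0.34 (95% interval -0.06 to 0.74) and -0.21 (-0.53 to 0.10) for its 2 probe sets. FCRL2, a receptor with both activating-type and inhibitory motifs, changed in Rec-1 by -0.16 to 0.31 and in SP-49 by -0.34 to 0.23 over 5 probe sets. FCRL3, a receptor for secretory IgA, had its largest difference in SP-49, where 231093_at read 6.32 and 6.25 with GSI, against 6.93 and 6.58 in Mock. That change of -0.47 had an adjusted p of 0.442, and in Rec-1 the same probe set changed by 0.09. FCRL5, a receptor for IgG, changed by 0.04 to 0.26 in Rec-1 on 4 probe sets, whereas the fifth, the dim 1555799_at, read 2.07 and 2.18 with GSI, against 2.69 and 2.83 in Mock. Its change of -0.63 did not pass (adjusted p = 0.105) and went against the other 4. FCRLB, the other intracellular member, changed by -0.02 in Rec-1, -0.27 in SP-49 and -0.31 in Mino, with intervals that all spanned 0.

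**Figure D3:**
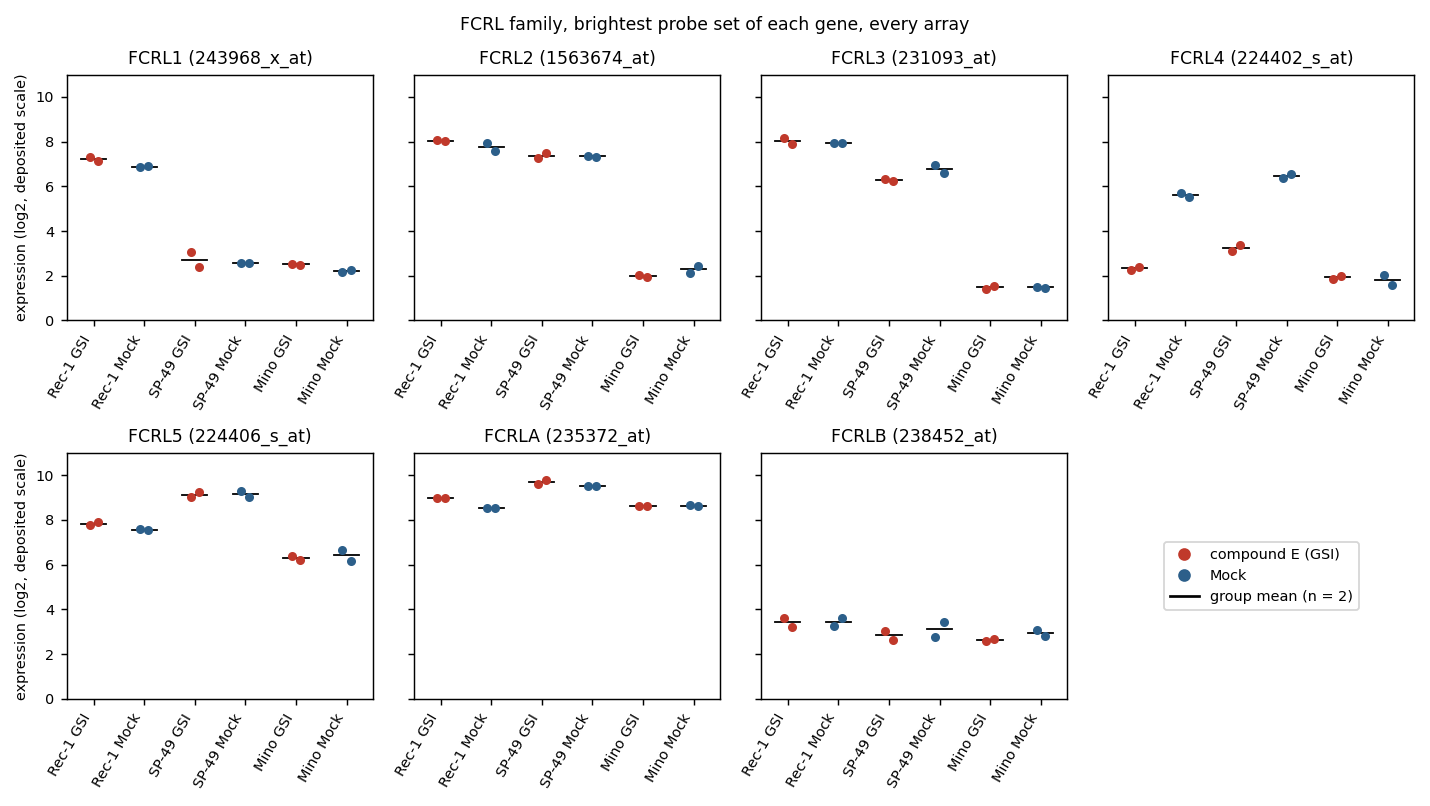
Level of each FCRL gene on every array, by its brightest probe set. The vertical axis is the deposited log2 value, red points are GSI and blue points Mock, and lines are means of 2 arrays. FCRL4 separates red from blue in Rec-1 and SP-49, while FCRL1, FCRL2, FCRL3 and FCRL5 separate mainly by line. The FCRLB readings overlap between treatments in Rec-1 and SP-49 and do not in Mino. Levels are not compared between genes, since probe sets differ in brightness.

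Without inhibitor the family differed far more between lines. In Rec-1, 17 of 21 probe sets, of 6 genes, were higher than in Mino and none lower, beside 8.20% of all probe sets higher and 16.8% called in either direction. In SP-49, 16 of 21, of 5 genes, were higher than in Mino and none lower, beside 9.04% of all higher. Rec-1 exceeded SP-49 in 6 and was under it in 7, beside 8.82% of all higher and 10.3% lower. The median differences of the 21 were 2.33 for Rec-1 minus Mino, 2.41 for SP-49 minus Mino and 0.13 for Rec-1 minus SP-49, beside 0.008, -0.037 and 0.046 over all probe sets. The first 2 of these comparisons share the Mino Mock arrays.

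FCRL1 was high in Rec-1 alone. Its probe set 243968_x_at, whose suffix marks probes that may match other sequences too, read 6.88 and 6.89 in Rec-1 Mock, 2.56 and 2.58 in SP-49 Mock and 2.18 and 2.27 in Mino Mock. The second, 235982_at, read 5.67 and 5.73 in Rec-1, 1.85 and 1.66 in SP-49 and 1.69 and 1.52 in Mino. SP-49 and Mino thus lay together near the overall median, and Rec-1 stood apart on both probe sets. Rec-1 was 25.3-fold and 17.1-fold above Mino (limma adjusted p = 7.65e-09 and 3.48e-09), and 19.9-fold and 15.4-fold above SP-49 (adjusted p = 1.49e-08 and 4.03e-09). The SP-49 minus Mino differences of 0.35 (95% interval -0.05 to 0.75) and 0.15 (-0.17 to 0.46) did not pass.

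FCRL2 and FCRL3 were high in Rec-1 and SP-49 and at the low end in Mino. FCRL3 by 231093_at read 7.96 and 7.93 in Rec-1 Mock, 6.93 and 6.58 in SP-49 Mock and 1.51 and 1.45 in Mino Mock. This was 88.4-fold higher in Rec-1 and 38.8-fold higher in SP-49 than in Mino (limma adjusted p = 1.16e-10 and 9.52e-10). Rec-1 was also 2.28-fold above SP-49 (adjusted p = 0.000115). The second FCRL3 probe set, 1553196_a_at, kept this order, but its SP-49 minus Mino difference of 0.84 passed narrowly (adjusted p = 0.0486) and was lost without either SP-49 Mock array, without Mino Mock replicate 1, without either Mino GSI array or without either Rec-1 Mock array (adjusted p 0.0586 to 0.338), and also after a second quantile normalization (0.100).

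FCRL2 by 1563674_at read 7.92 and 7.57 in Rec-1 Mock, 7.37 and 7.31 in SP-49 Mock and 2.11 and 2.46 in Mino Mock. Rec-1 was 44.2-fold and SP-49 33.3-fold above Mino (limma adjusted p = 8.05e-10 and 2.23e-09). All 5 probe sets of FCRL2 read higher on average in Rec-1 than in SP-49, and 221239_s_at and 224193_s_at passed, by 0.99 and 1.02 (adjusted p = 0.000159 and 0.000311). For 1563674_at the difference was 0.41 (adjusted p = 0.120), and the mean of the probe sets passed at 0.58 (adjusted p = 0.00151). Of the 5 probe sets, 224194_at showed the smallest differences from Mino, with readings of 2.87 and 3.28 in Rec-1, 2.63 and 2.68 in SP-49 and 2.48 and 2.48 in Mino. These readings did not overlap between lines, but no difference passed. Its Rec-1 minus Mino difference of 0.59 had an adjusted p of 0.0549, and passed with dim probe sets left out (0.0440) and without either Mino GSI array, either Rec-1 GSI array or Rec-1 Mock replicate 1 (0.0320 to 0.0471).

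FCRL4 followed the same division in the Mock arrays given above. Rec-1 was 13.7-fold, 14.9-fold and 10.6-fold above Mino by 224402_s_at, 224403_at and 224401_s_at, and SP-49 was 24.9-fold, 30.8-fold and 9.75-fold above it (the largest limma adjusted p of the 6 was 1.07e-06). Rec-1 was below SP-49 by 1.82-fold on 224402_s_at (adjusted p = 0.00273) and by 2.07-fold on 224403_at (adjusted p = 0.0157), while 224401_s_at gave a difference of 0.13 (adjusted p = 0.774). The 224403_at difference no longer passed without Rec-1 Mock replicate 2, SP-49 Mock replicate 1 or SP-49 Mock replicate 2 (adjusted p = 0.159, 0.0643 and 0.104).

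FCRL5 had a graded order, SP-49 above Rec-1 above Mino, and unlike FCRL1 to FCRL4 it was well above the median in Mino. Its probe set 224406_s_at read 7.61 and 7.53 in Rec-1 Mock, 9.30 and 9.01 in SP-49 Mock and 6.65 and 6.18 in Mino Mock, with no overlap between lines. SP-49 was 6.68-fold and Rec-1 2.23-fold above Mino (limma adjusted p = 6.12e-07 and 0.000574), and Rec-1 was 3.00-fold below SP-49 (adjusted p = 4.11e-05). The probe sets 231647_s_at, 224405_at and 224404_s_at kept the order, with SP-49 15.0-fold, 9.62-fold and 5.33-fold above Mino. For 224404_s_at the Rec-1 minus Mino difference of 0.64 (adjusted p = 0.00843) was lost without Mino Mock replicate 2 (0.0736) or Rec-1 Mock replicate 2 (0.0925). The dim 1555799_at again stood apart, with Rec-1 higher than Mino by 1.08 (adjusted p = 0.00139) and higher than SP-49 by 0.55 (adjusted p = 0.0604). That last difference passed with dim probe sets left out (0.0484) and without SP-49 Mock replicate 1 (0.0266) or either SP-49 GSI array (0.0361). The SP-49 minus Mino difference of 0.53 (adjusted p = 0.0805) passed without SP-49 Mock replicate 2 (0.0362) or either SP-49 GSI array (0.0491).

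FCRLA was far above the median in all 3 lines. SP-49 exceeded Mino on all 3 probe sets, by 0.87, 0.94 and 0.54 for 235372_at, 235400_at and 235401_s_at (limma adjusted p = 0.000258, 0.000144 and 0.0327). The last was lost without either Mino Mock array or either SP-49 Mock array (adjusted p 0.0734 to 0.223). For Rec-1 minus Mino the probe sets disagreed, with 1.07 on 235400_at (adjusted p = 5.10e-05), -0.12 on 235372_at (0.650) and 0.09 on 235401_s_at (0.826). For Rec-1 minus SP-49, 235372_at was lower in Rec-1 by 1.98-fold (-0.99, adjusted p = 7.72e-05), whereas 235401_s_at gave -0.45 (0.0688) and 235400_at 0.13 (0.568). The 235401_s_at difference passed with an intensity trend and robust prior (0.0114), with only the arrays compared (0.0411) and without either Mino GSI array (0.0353). The probe sets thus give no single order of Rec-1 against the other lines. FCRLB by 238452_at read 3.27 and 3.60 in Rec-1 Mock, 2.77 and 3.44 in SP-49 Mock and 3.07 and 2.80 in Mino Mock. Its readings overlapped between SP-49 and each other line, and none of the 3 differences passed (adjusted p = 0.210 to 0.758).

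**Figure D4:**
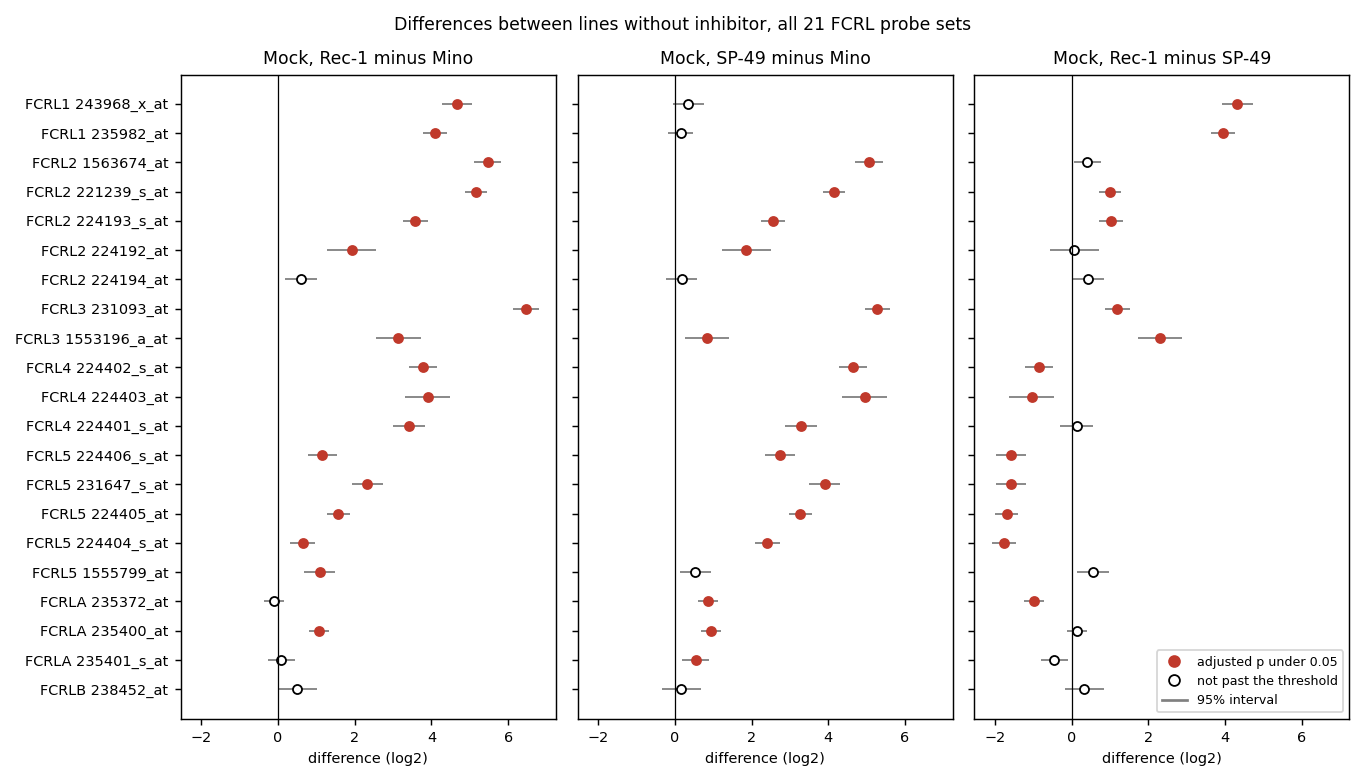
Differences between lines in the Mock arrays (log2) for the 21 FCRL probe sets, as Rec-1 minus Mino, SP-49 minus Mino and Rec-1 minus SP-49. Points are limma estimates from 2 arrays per group, lines are 95% intervals, and filled red points passed an adjusted p of 0.05; the FCRL1 points are filled only where Rec-1 is compared, and 4 of 5 FCRL5 probe sets lie between -1.77 and -1.58 for Rec-1 minus SP-49.

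Over the 12 arrays, which share 3 lines and 2 treatments, FCRL2 and FCRL3 had the most similar profiles within the family (r = 0.987 between their brightest probe sets). FCRL5 and FCRLA followed with r = 0.888, whereas FCRL4 had r between 0.153 and 0.630 with the other members. Among 5509 genes whose brightest probe set spanned at least 1 log2 unit, the profile most like that of FCRL4 was HES1 (r = 0.974), followed by NRARP, a feedback inhibitor of Notch (r = 0.939), and CR2, the complement receptor CD21 (r = 0.939). XYLT1, a xylosyltransferase of proteoglycan synthesis, and TNFRSF1B, a receptor for tumour necrosis factor, came next (r = 0.920 and 0.918). CR2 read 2.74 and 2.29 in Rec-1 with GSI, against 5.63 and 5.67 in Mock, and 2.28 and 2.11 in SP-49 with GSI, against 5.06 and 4.83 in Mock. In Mino it read 1.14 and 1.15 with GSI, against 1.42 and 1.29 in Mock. Like FCRL4, CR2 was high in the Mock arrays of Rec-1 and SP-49 alone. Because CR2 was picked for its likeness to FCRL4 over these same arrays, this follows from the choice. The most similar profiles were GTSF1 for FCRL3 (r = 0.998), RUNDC3B for FCRL1 (r = 0.995), LAMP5 for FCRL2 (r = 0.994), RASSF3 for FCRL5 (r = 0.990) and PLEK for FCRLA (r = 0.988). FCRLB spanned 0.809 log2 units over all arrays, too little for this comparison.

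Genes beside the family were read to see how far the FCRL4 change reached along the chromosome. Among the 5 protein-coding neighbours on each side of FCRL5 to FCRL1, 8 of 10 were measured, and 1 passed in Rec-1 and none in SP-49 or Mino. For comparison, 6.21% of all genes were called in Rec-1, 0.121% in SP-49 and 0% in Mino. The gene that passed was CD1D, which presents lipids to natural killer T cells: it averaged 8.48 ± 0.04 in Rec-1 with GSI and 7.48 ± 0.10 in Mock (SD, n = 2 arrays each; limma adjusted p = 0.00663), the opposite direction to FCRL4. In SP-49 CD1D changed by -0.16 (adjusted p = 0.930). ETV3, next to FCRL5, changed by -0.46 in Rec-1 and -0.54 in SP-49, and neither passed (adjusted p = 0.447 and 0.699). Of the neighbours of FCRLA and FCRLB, 9 of 10 were measured and none passed in any line. They include FCGR2B, the inhibitory IgG receptor of B cells, whose change was 0.30 in Rec-1 and 0.00 in SP-49 (adjusted p = 0.335 and 1). FCGR2B was higher than in Mino by 2.35 in Rec-1 Mock and by 2.61 in SP-49 Mock (limma adjusted p = 3.05e-07 and 1.53e-07). It was not alone among the neighbours. DUSP12 was higher than in Mino by 0.73 and 0.91, and CD1D by 5.84 and 1.83. FCGR2A and HSPA6 were higher in SP-49 Mock only, and no other measured neighbour passed against Mino.

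**Figure D5:**
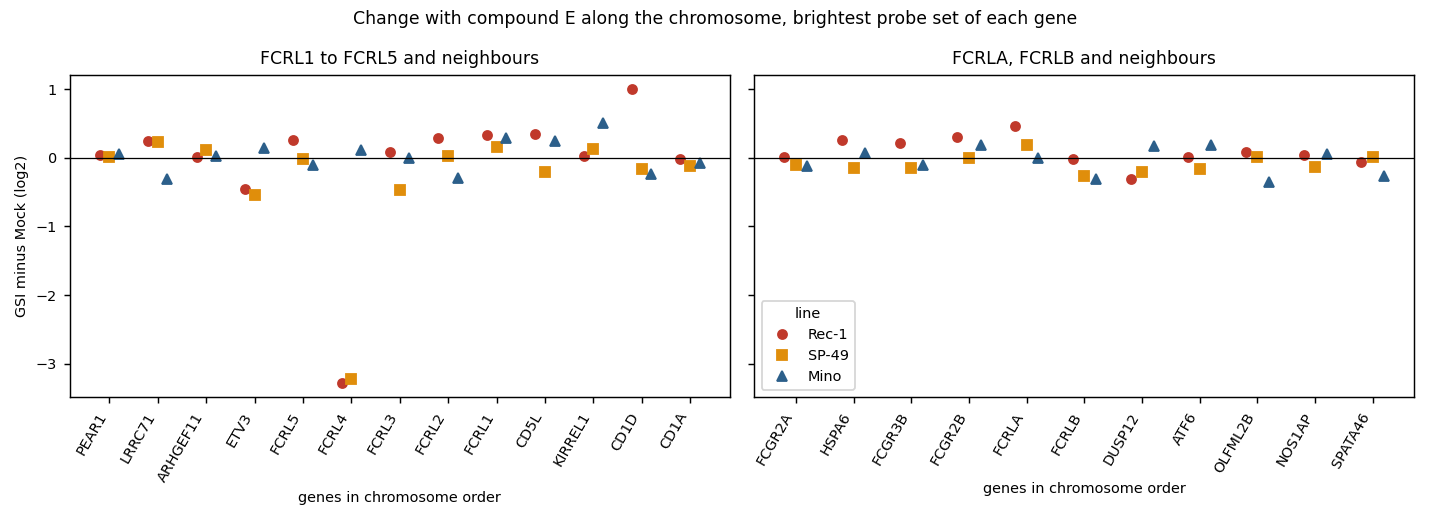
Change with compound E (GSI minus Mock, log2) of FCRL genes and the measured protein-coding genes beside them, in chromosome order and without true spacing, by the brightest probe set of each gene. Points are Rec-1 (red circles), SP-49 (orange squares) and Mino (blue triangles), each from 2 arrays per treatment; FCRL4 is the one gene under -3, with its neighbours FCRL5 and FCRL3 between -0.47 and 0.26.

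The gene lists from here on were chosen with earlier results of these data known. Setting their counts beside the shares of all genes is therefore no test of an excess. Of 14 measured of 16 classical and other Fc receptors, 2 were higher in Rec-1, beside 2.04% of all genes. None passed in SP-49 or Mino. The median change of this list was 0.084 in Rec-1 and -0.018 in SP-49, beside 0.012 and -0.019 over all genes. The 2 were PIGR, the carrier of IgA and IgM across epithelia, at 4.21 ± 0.15 with GSI and 2.70 ± 0.32 in Mock (limma adjusted p = 0.00165), and FCMR, the IgM receptor, at 6.18 ± 0.03 with GSI and 5.16 ± 0.29 in Mock (SD, n = 2 each; adjusted p = 0.00696).

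Among the kinases, phosphatases and adaptors that act with FCRL proteins and the B-cell receptor, 21 of 24 were measured. In Rec-1, 6 rose and 1 fell, beside 2.04% and 4.18% of all genes, and the median change was 0.095. Because this list too was chosen with earlier results of these data known, the shares are no test of an excess. The kinase SYK rose by 0.60 (limma adjusted p = 0.0289), the B-cell receptor chain CD79B by 1.06 (0.00121), the exchange factor VAV1 by 0.84 (0.0209) and the phospholipase PLCG2 by 0.64 (0.0221). The adaptor DAPP1 rose by 0.94 (adjusted p = 0.00200) and the inhibitory receptor CD72 by 0.73 (0.0198). FYN, a Src-family kinase, was the member that fell, by 1.74 in Rec-1 (adjusted p = 0.000606) and by 1.76 in SP-49 (0.00858). In SP-49 FYN was the 1 member called, beside 0.106% of all genes lower, and the list's median was -0.114. In Mino none of the 21 passed.

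Genes for antibody chains and their carriers, some of which encode FCRL ligands, were measured for 7 of 9. JCHAIN, the joining chain of IgA and IgM, averaged 6.31 ± 0.12 in Rec-1 with GSI and 4.75 ± 0.09 in Mock (SD, n = 2 each; limma adjusted p = 0.000877). MZB1, a chaperone of antibody assembly, averaged 6.23 ± 0.05 in SP-49 with GSI and 5.16 ± 0.09 in Mock (SD, n = 2 each; adjusted p = 0.0402). No other member passed in either line, and 0.0152% of all genes were called higher in SP-49. Of markers linked to FCRL4-positive or atypical memory B cells, 23 of 27 were measured, and in Rec-1 2 rose and 3 fell, beside 2.04% of all genes higher and 4.18% lower. The list was not split into markers high and markers low in such cells. Its rises and falls therefore do not say whether the cultures moved towards or away from that state. CR2 fell by 3.14 (adjusted p = 5.91e-06), CD27, a memory B-cell marker, by 0.87 (0.0458) and the follicle-homing receptor CXCR5 by 0.63 (0.0474). TOX, a transcriptional regulator, rose by 1.06 (0.00661), and CD24, a surface glycoprotein, by 0.79 (0.00696). In SP-49 CR2 was the 1 member called, with a fall of 2.75 (adjusted p = 2.17e-05), beside 0.106% of all genes lower. Of 11 measured of 12 B-cell identity genes, MS4A1, CD79B and CD37 rose in Rec-1, beside 2.04% of all genes higher, and none passed in SP-49 or Mino.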

How the data were processed

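RNA of 3 cell lines was measured on 12 Affymetrix arrays. The deposited log2 values had been normalized by the authors, with RMA and limma named without versions, per the submitters' processing notes. Base 2 was inferred from the range, 0.578 to 12.78. The genome build of the probe annotation is not given in the sources used here, and there are no detection calls, so no probe set was removed for a low value.

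Of 54675 probe sets, 62 controls were left out. Symbols were updated by gene number for 41043, and 41091 probe sets named 1 gene. Limma 3.58.1 in R 4.3.3 (lmFit, eBayes, constant prior) fitted 6 group means to the 12 arrays (residual degrees of freedom 6, prior 5.57). Tests were two-sided and adjusted by Benjamini-Hochberg over 54613 probe sets per contrast, with a threshold of 0.05, and intervals are for single probe sets. A gene was called where at least 1 probe set naming it alone passed. In the text a listed gene is given by its called probe set with the lowest adjusted p, otherwise by its brightest. The median standard error of a response was 0.163. The fit was checked on simulated data. Alternatives were 1 row per gene, dim probe sets left out, other scalings, a trend and robust prior, only the arrays compared, a replicate block, each array left out, and both narrow-range arrays left out.

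All member probe sets are named, and of each list the members that passed. The members and lists were chosen with earlier results of these data known. The limit to protein-coding neighbours was set after the gene table was seen. Motifs were searched in RefSeq sequence of GRCh38.p14.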

Additional observations from a re-analysis of the deposited data

Results flagged for a closer look

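FCRL4 is listed because its change with the inhibitor, set against that in Mino, passed the test in both other lines. For Rec-1 minus Mino the differences in response were -3.39, -3.11 and -2.80 log2 units on 224402_s_at, 224403_at and 224401_s_at (limma adjusted p = 0.000486, 0.00724 and 0.00252). For SP-49 minus Mino they were -3.32, -3.37 and -2.54 (adjusted p = 0.000716, 0.0162 and 0.0118). On 224403_at and 224401_s_at, the SP-49 minus Mino difference no longer passed when any Mino array or either SP-49 Mock array was left out. Both GSI arrays lay below both Mock arrays in Rec-1 and in SP-49 on all 3 probe sets, whereas the arrays overlapped in Mino. FCRL4 was near background in Mino Mock, at 1.22 to 2.05, so these differences mostly repeat the within-line decreases of SP-49 and Rec-1 and do not show that Mino responds differently. With 2 arrays per group no array could be tested for standing apart from its group.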

How the results depend on the processing

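FCRL4 was called lower in Rec-1 and in SP-49 under every alternative run (adjusted p up to 0.0369 and 0.0293), and no FCRL gene was called in Mino under any of them. The count of FCRL genes called in Rec-1 was 1, and it was 2, FCRL4 and FCRLA, with the brightest probe set per gene, with a second quantile normalization, and with an intensity trend and robust prior. The last setting also gave 2 genes for the difference in response Rec-1 minus Mino, FCRL4 and FCRLA. FCRLA 235372_at in Mock, Rec-1 minus Mino, was 0.35 (adjusted p = 0.0180), against -0.12, where the mean of its probe sets stood for the gene, since 235400_at, at 1.07, then entered the value. For the replicate block, deviations of same-numbered arrays correlated at 0.048 in Mino, 0.069 in Rec-1 and -0.012 in SP-49, so the numbers were not taken as pairs. With the block, 1 FCRL gene was called in Rec-1, 1 in SP-49 and 0 in Mino, as without it, and FCRL2 224194_at passed for Rec-1 minus Mino in Mock (0.59, adjusted p = 0.0191). Leaving out each array in turn gave 1 gene in Rec-1 and 1 in SP-49 every time. A remaining single array was then assumed to vary like the other groups. Signals near 1.99 are limited by background, which bounds how large a fall of FCRL4 can read.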
